A study of Mus musculus with 40 samples.

Results

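A set of 10 genes that glucocorticoid hormones are known to induce was followed through repeated closed-head injury in mouse cortex: Fkbp5, Plin4, Sult1a1, Sgk1, Pdk4, Tsc22d3, Nfkbia, Cdkn1a, Errfi1 and Zbtb16. They were picked by symbol from the 55539 features of the deposited count table, and all 10 passed the filter on low counts that left 15224 features for testing. Over 29 comparisons in the edgeR fit of all 12 groups, none of the members had an adjusted p under 0.05, although some other settings gave 1 to 3 members such a p. A pattern without overlap was found at 4 h after an injury. All 8 samples tested had more Plin4 and more Fkbp5 transcript than all 4 sham-injured samples. This pattern was shown by 68 of the 15224 features (0.447%). In the 4 h sample left out of the tests (sample 30), both genes lay within the sham range.

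Glucocorticoids (corticosterone in mice) are released by the adrenal gland on a daily rhythm and in response to stress. In the cell they bind the glucocorticoid receptor, which leaves a complex of chaperones, enters the nucleus and binds short inverted repeats of DNA near its target genes. In brain, several targets are known mainly from glia and vascular cells, and some of the products, such as FKBP5, feed back on the receptor itself.

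All mice were female 3xTg-AD animals aged 2 to 4 months. This line carries human transgenes for amyloid precursor protein and tau under the neuronal Thy1 promoter, together with a presenilin mutation, so the controls were a model of Alzheimer's disease too. Closed-head injury (CHI) was given by weight drop under isoflurane, once a day, and bulk RNA of the left somatomotor cortex was sequenced at 30 min (n = 3 in each group), 4 h (n = 3, 2 and 3) and 24 h (n = 4 in each group) after the last of 1 (1xCHI), 3 (3xCHI) or 5 (5xCHI) injuries. Cortices collected 24 h after 2xCHI and 4xCHI (n = 3 each) served as the groups before the third and the fifth injury. The 4 sham-injured mice, the group before 1xCHI, had anesthesia without an injury, pooled different numbers of exposures and time points, and are all labelled 0 h. The hours between their last anesthesia and collection, and the time of day of any collection, are not given in the sources used here. In comparisons with the shams, injury therefore cannot be told apart from time since anesthesia, nor hours after injury from the daily rhythm of the hormone. Sample 30 (3xCHI, 4 h) was left out for outlying protein values of the same animal, which left 39 samples.

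The libraries held between 15926014 and 27859547 counts, with 19028778 as the median. Neuronal markers summed to between 4582 and 7468 CPM (counts of a gene scaled to a common library total), and none of the markers of neurons, astrocytes, oligodendrocytes or microglia was at 0 in any sample. Samples 11 (5xCHI, 24 h) and 10 (5xCHI, 4 h) stood apart in glial genes: Gfap, the filament protein of reactive astrocytes, was at 2417 and 1631 CPM there, against a median of 199.5 CPM over the 39 samples, and their microglia markers summed to 748.6 and 613.4 CPM against 276.8 to 323.6 CPM in the shams. Choroid plexus markers were high in samples 31 (2494 CPM), 32 (1274 CPM), 24 (844.1 CPM) and 12 (400.5 CPM), with a median of 18.8 CPM. All 2xCHI and 4xCHI samples carry numbers between 19 and 40, whereas the sham, 1xCHI, 3xCHI and 5xCHI samples lie on both sides of the step from 18 to 19. That step is not a batch named by the study, and values on each side of it are given where they touch a result. In bulk tissue, fewer cells of a type and less RNA per cell cannot be told apart.

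Levels can be compared between genes only per length. On the scale of CPM per kilobase of annotated exon, the sham-injured median was highest for Tsc22d3 (16.2) and Sgk1 (16.0), followed by Nfkbia (12.5), Zbtb16 (9.28), Errfi1 (8.94), Cdkn1a (5.57), Sult1a1 (5.20), Pdk4 (4.58), Fkbp5 (2.85) and Plin4 (1.34). Plin4, the lowest of them, had the widest spread, a 32.9-fold range from 2.46 to 80.8 CPM over the 39 samples. The highest sample exceeded the lowest by 6.70-fold for Sult1a1, 4.76-fold for Zbtb16, 4.63-fold for Cdkn1a, 4.37-fold for Sgk1, 4.17-fold for Fkbp5, 4.02-fold for Nfkbia and 3.03-fold for Pdk4. Tsc22d3 (2.24-fold) and Errfi1 (1.90-fold) varied least. Sample 11 was the highest of all 39 samples for Plin4, Sult1a1, Sgk1, Pdk4 and Cdkn1a.

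**Figure D1:**
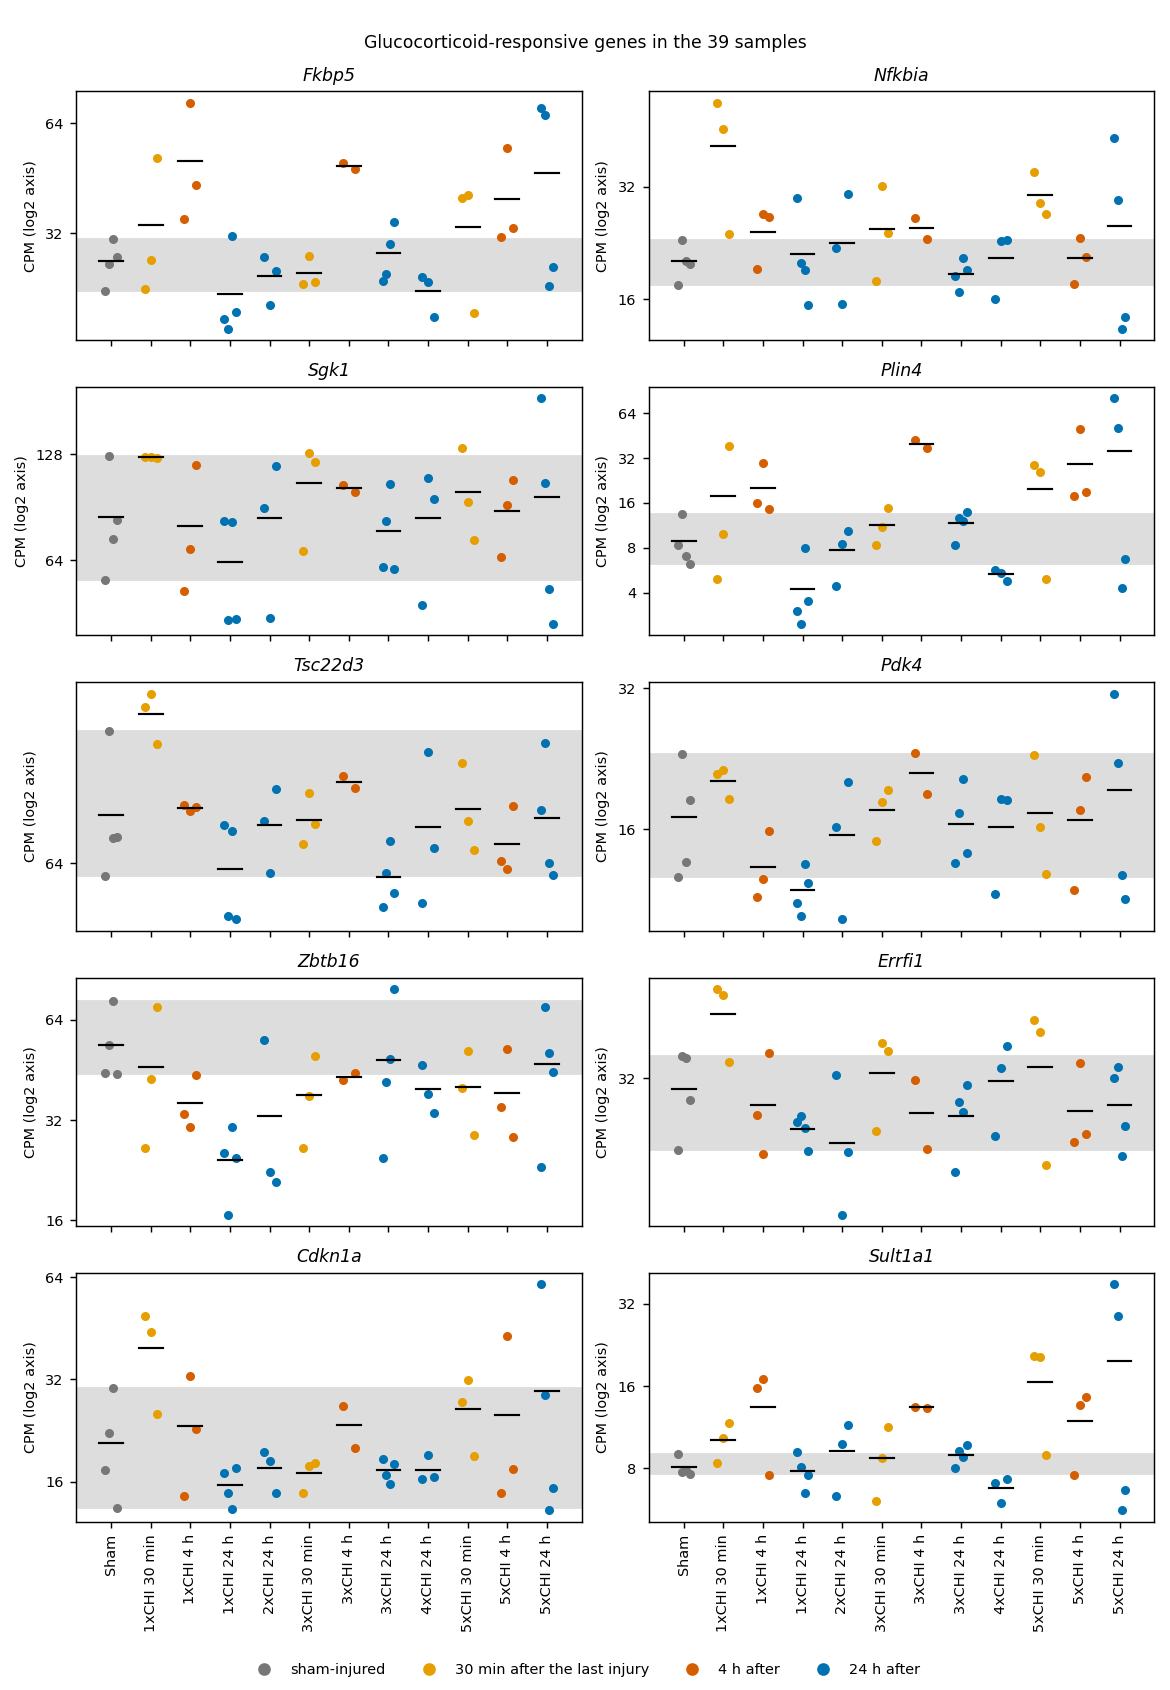
CPM of each of the 10 genes on a log2 axis in the 12 groups. Each point is 1 sample, the bar is the group mean, and the grey band spans the 4 sham-injured samples. For Fkbp5 and Plin4 all 8 points at 4 h lie above the band, and in the 5xCHI 24 h group samples 11 and 12 lie far above samples 33 and 34.

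The DNA before the start site is shown for Fkbp5, Plin4 and Sult1a1, whose levels moved together across the samples, and for Sgk1, whose window holds a complete receptor repeat. The sequences are those of RefSeq (GRCm38.p6), from 250 bases before the start site down to the start site or to the first annotated exon base. Capitals mark the 6-base core of the receptor's inverted repeat, AGAACA, or its reverse complement TGTTCT, searched on both strands.

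Fkbp5, chr17:28486150-28486399, minus strand: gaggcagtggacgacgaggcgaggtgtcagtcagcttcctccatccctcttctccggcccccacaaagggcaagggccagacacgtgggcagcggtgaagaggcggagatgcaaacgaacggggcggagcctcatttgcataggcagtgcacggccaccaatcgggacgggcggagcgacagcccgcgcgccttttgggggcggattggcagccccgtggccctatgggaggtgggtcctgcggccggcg

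Plin4, chr17:56109804-56110032, minus strand: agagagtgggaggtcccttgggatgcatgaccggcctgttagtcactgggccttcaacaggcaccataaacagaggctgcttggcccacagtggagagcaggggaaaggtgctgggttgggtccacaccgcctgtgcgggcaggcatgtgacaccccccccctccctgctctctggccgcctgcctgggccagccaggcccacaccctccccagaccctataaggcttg

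Sult1a1, chr7:126676433-126676668, minus strand: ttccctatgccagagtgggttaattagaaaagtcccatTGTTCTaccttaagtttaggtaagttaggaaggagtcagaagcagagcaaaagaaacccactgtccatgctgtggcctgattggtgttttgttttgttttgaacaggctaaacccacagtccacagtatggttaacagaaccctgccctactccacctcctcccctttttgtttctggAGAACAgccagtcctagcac

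Sgk1, chr10:21993640-21993889, plus strand: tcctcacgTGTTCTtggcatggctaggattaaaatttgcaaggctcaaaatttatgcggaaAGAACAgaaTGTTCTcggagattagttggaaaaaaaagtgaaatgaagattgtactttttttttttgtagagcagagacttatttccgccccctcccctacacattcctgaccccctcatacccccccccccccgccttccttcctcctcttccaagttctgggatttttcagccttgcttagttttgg

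The GC-rich windows of Fkbp5 (68.0% GC) and Plin4 (64.6% GC) held no core, whereas the Sult1a1 window held 2 and the Sgk1 window 3. In the Sgk1 window, which is 1 of 6 for this gene, a pair of cores formed the inverted repeat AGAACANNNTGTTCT, beginning 189 bases before the start site. This repeat was found in 3 of 32851 start-site windows of the mouse genome (0.00913%), and the single core in 5284 of them (16.1%). Of the 9 members with a window, 3 (Sgk1, Tsc22d3 and Sult1a1) had at least 1 core, or 33.3%, beside 18.2% of all 27025 genes with a window. A gene with several windows, such as Sgk1, has more chances of a match. By window, 5 of 18 held a core for the members (27.8%), beside 16.1% of all windows and 10.9% for features passing the filter. A match is a description of the letters, and its absence from a window says nothing about the receptor.

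Plin4 (chr17:56100591-56109803, minus strand; all gene positions are GRCm38) encodes perilipin 4, a coat protein of lipid droplets. It had 6.25, 7.04, 8.40 and 13.5 CPM in the sham-injured samples. At 4 h it had 14.5, 16.0 and 29.5 CPM after 1xCHI, 37.5 and 42.2 CPM after 3xCHI, and 17.8, 18.8 and 50.5 CPM after 5xCHI. None of the 8 samples at 4 h overlapped the shams. At 24 h the 1xCHI samples had 2.46, 3.02, 3.49 and 7.95 CPM and the 3xCHI samples 8.31, 12.1, 12.7 and 13.9 CPM, all below every 4 h sample. The 5xCHI samples at 24 h split, with 4.26 and 6.71 CPM in samples 33 and 34 and 80.8 and 50.7 CPM in samples 11 and 12, above all samples at 4 h.

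The mean of the 4 h groups exceeded that of the 24 h groups by a log2 fold change of 1.23 (SE 0.40, 95% interval 0.40 to 2.05) for Plin4, and that of the shams by 1.68 (SE 0.59). Neither passed the threshold after adjustment over all features (edgeR quasi-likelihood test, adjusted p = 0.993 and 0.550). A two-sided exact permutation test of the single gene, in which samples changed places only within an injury number, gave a mean log2 difference between 4 h and 24 h of 1.52 with an unadjusted p of 0.00942, where 18375 arrangements allow a p as small as 5.44e-05. Against the shams, the exact permutation p was 0.00404 for a difference of 1.60, where the smallest possible is 0.00202. Among samples 19 to 40 alone, Plin4 was 14.5 and 18.8 CPM at 4 h against 3.49 to 13.9 CPM in 7 samples at 24 h. Plin4 shares 17 exon bases with Hdgfl2 on the opposite strand, and the use of strand in the counting is not given, so reads of the 2 genes may not be separable there. Over the 39 samples their levels had a Pearson's r of 0.08.

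Fkbp5 (chr17:28399094-28517527, minus strand) encodes a co-chaperone that lowers the affinity of the receptor for its hormone and is among the most used readouts of glucocorticoid action. The sham-injured samples had 22.2, 26.4, 27.6 and 30.9 CPM. The 4 h samples had 35.0, 43.4 and 73.0 CPM after 1xCHI, 48.0 and 49.9 CPM after 3xCHI, and 31.2, 33.1 and 54.8 CPM after 5xCHI. As for Plin4, all 8 lay above all shams. At 24 h Fkbp5 had 17.5 to 19.5 CPM in 3 of the 1xCHI samples and 31.4 CPM in sample 26, and 23.7, 24.7, 29.9 and 34.3 CPM after 3xCHI. After 5xCHI it was again divided at 24 h, with 22.9 and 25.8 CPM in samples 33 and 34 and 70.7 and 67.4 CPM in samples 11 and 12.

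The log2 fold change of Fkbp5 at 4 h was 0.59 (SE 0.20, 95% interval 0.19 to 0.99) against 24 h, 0.61 (SE 0.21) against 30 min and 0.79 (SE 0.27) against the shams, with adjusted p-values of 0.993, 0.874 and 0.550. The exact permutation tests of the single gene, two-sided and unadjusted, gave p = 0.0262 against 24 h and p = 0.00808 against the shams. The same exact permutation test at 4 h against 24 h gave p = 0.0485 for Tsc22d3 and p between 0.267 and 0.702 for the other 7 members, all unadjusted. Among samples 19 to 40 alone, Fkbp5 was 33.1 and 43.4 CPM at 4 h and 19.5 to 34.3 CPM in 7 samples at 24 h, so the ranges overlapped. Only these 2, Plin4 and Fkbp5, of the 10 members were above all shams in every 4 h sample, a pattern shown by 68 of the 15224 features (0.447%). Sample 30, left out of the 4 h samples, had 9.78 CPM of Plin4 and 26.3 CPM of Fkbp5, within the sham range. In the 4 h samples used, Gfap was 332.3, 204.4 and 229.6 CPM after 1xCHI and 479 and 211.3 CPM after 3xCHI. After 5xCHI it was 341.7, 1631 and 122.5 CPM, beside 124.7 to 174.5 CPM in the shams. The part of reactive astrocytes in the Plin4 and Fkbp5 values was not tested.

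Sult1a1 (chr7:126672865-126676432, minus strand), a cytosolic sulfotransferase of phenols and catechols, followed Plin4 in part. It was at 7.61 to 9.06 CPM in the 4 shams. In 6 of the 8 samples at 4 h it lay above them, with 15.7 and 17.0 CPM after 1xCHI, 13.4 and 13.5 CPM after 3xCHI, and 13.7 and 14.6 CPM after 5xCHI, while the remaining samples had 7.55 (1xCHI) and 7.58 CPM (5xCHI). The log2 fold change at 4 h was 0.67 (SE 0.34) against the shams and 0.21 (SE 0.25) against 24 h, and the exact permutation p against the shams was 0.0546, two-sided. In single samples at 4 h, 19.2% to 35.9% of all features lay above all shams. Sult1a1 shares 61 exon bases with Sgf29 on the opposite strand (r = 0.42 between their levels), so reads of the 2 genes may not be separable there.

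Nfkbia (chr12:55489410-55492647, minus strand) encodes IκBα, the inhibitor that holds NF-κB in the cytoplasm. Its sham-injured samples had 17.5, 19.9, 20.3 and 23.1 CPM. At 30 min it had 24.0, 45.8 and 53.7 CPM after 1xCHI, 18.0, 24.1 and 32.2 CPM after 3xCHI, and 27.0, 29.0 and 35.0 CPM after 5xCHI, so that 8 of 9 samples lay above all shams. In single samples at 30 min, 16.9% to 36.8% of all features lay above all shams. The log2 fold change of Nfkbia was 0.63 (SE 0.24, adjusted p = 0.316) against the shams and 0.55 (SE 0.17, adjusted p = 0.365) against 24 h. Without sample 27 (1xCHI, 30 min), the edgeR difference against 24 h passed the threshold, at 0.64 with an adjusted p of 0.0494, where 192 features did in all. At 4 h Nfkbia ranged from 17.6 to 27.0 CPM (4 h against 30 min, -0.44, SE 0.19).

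Tsc22d3 (chrX:140539528-140600659, minus strand), also known as GILZ, encodes a leucine zipper protein that mediates anti-inflammatory effects of glucocorticoids. It ranged from 67.1 to 117 CPM at 30 min (median 82.3 CPM, n = 9) and from 52.3 to 98.3 CPM at 24 h (median 62.9 CPM, n = 12). The log2 fold change was 0.38 (SE 0.10), with the smallest adjusted p of any member in this comparison (0.172), and it was 0.80 within 1xCHI, 0.30 within 3xCHI and 0.05 within 5xCHI. The shams spanned 61.2 to 102.7 CPM and covered most of the 30 min samples, and the log2 fold change against them was 0.17 (SE 0.14). Without sample 12 (5xCHI, 24 h) or sample 27 (1xCHI, 30 min), the 30 min against 24 h difference of Tsc22d3 passed the threshold, at 0.43 and 0.41 with adjusted p of 0.0488 each.

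Errfi1 (chr4:150853919-150868892, plus strand), which encodes the feedback inhibitor MIG6 of the EGF receptor, had the narrowest range of the members. At 30 min it had 33.5, 40.6 and 41.3 CPM after 1xCHI, 27.5, 34.6 and 35.4 CPM after 3xCHI, and 25.0, 36.5 and 37.8 CPM after 5xCHI. Of these 9 samples, 7 lay above all 12 samples at 24 h, which spanned 24.5 to 33.1 CPM. The log2 fold change was 0.27 (SE 0.08, adjusted p = 0.365) against 24 h and 0.15 (SE 0.12) against the shams, which had 26.1 to 34.1 CPM.

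Sgk1 (chr10:21882184-21999903, plus strand), a kinase that acts on ion channels and transporters, had 124.5, 125.4 and 126 CPM in the 1xCHI samples at 30 min. The 3xCHI samples at 30 min had 68.2, 121.5 and 129 CPM and the 5xCHI samples 73.1, 93.6 and 133 CPM. The 24 h samples ranged from 42.2 to 184.6 CPM with a median of 71.8 CPM, the highest being sample 11. The log2 fold change at 30 min against 24 h was 0.50 (SE 0.23, adjusted p = 0.468). The shams alone spread from 56.2 to 126.2 CPM.

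Cdkn1a (chr17:29090976-29100727, plus strand) encodes the cell cycle inhibitor p21, a target of p53 as well as of the receptor. It had 25.3, 44.1 and 49.1 CPM 30 min after 1xCHI against 13.4, 17.3, 22.3 and 30.1 CPM in the shams, a log2 fold change of 0.93 (SE 0.37, adjusted p = 0.192). At 30 min after 3xCHI it was at 14.8, 17.8 and 18.2 CPM, within the sham range. At 30 min after 5xCHI it was at 19.0, 27.4 and 31.9 CPM, the last of them above all shams. A gene model of unknown status (AC167363.2) shares 273 exon bases with Cdkn1a on the opposite strand.

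Pdk4 (chr6:5483351-5496309, minus strand) encodes the kinase that switches off pyruvate dehydrogenase and so spares glucose. It had 12.7, 13.7, 18.5 and 23.1 CPM in the shams, 12.9 to 23.1 CPM at 30 min (median 18.6 CPM), 11.5 to 23.3 CPM at 4 h (median 16.7 CPM) and 10.4 to 31.1 CPM at 24 h (median 13.5 CPM). These ranges overlapped throughout, and the log2 fold change was 0.24 (SE 0.16) at 30 min and 0.10 (SE 0.17) at 4 h against 24 h.

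Zbtb16 (chr9:48654297-48836222, minus strand), which encodes the zinc finger repressor PLZF, had its highest group mean in the shams, which had 43.9, 44.1, 53.9 and 72.9 CPM. In the 1xCHI samples at 24 h it had 16.6, 24.7, 25.6 and 30.5 CPM, below all shams, with a log2 fold change of -1.14 (SE 0.34, adjusted p = 0.703). At 30 min 6 of 9 samples, and at 4 h 6 of 8, also lay below all shams. In single samples, 17.5% to 36.1% of all features lay below all shams at 30 min and 18.9% to 33.7% at 4 h. At 24 h after 1xCHI it was 19.8% to 31%. The share of features with counts like those of Zbtb16 was not computed. For 4 h against the shams the mean log2 difference of Zbtb16 was -0.47 with an unadjusted two-sided exact permutation p of 0.0384, whereas the same test gave p between 0.208 and 0.859 for Sgk1, Tsc22d3, Cdkn1a, Nfkbia, Pdk4 and Errfi1. Against 24 h, the values of Zbtb16 at 30 min (0.11, SE 0.21) and 4 h (0.03, SE 0.22) were near 0 on the log2 scale.

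Counted over the list, 0 of 10 members passed the adjusted threshold in the comparisons by time, where 0.00657% of features did at 4 h against 24 h, 0.145% at 30 min against 24 h, 0.00657% at 4 h against 30 min and 0.0328% for any difference by time. At an unadjusted p under 0.05, edgeR counted 3 members at 4 h against 24 h (Plin4, Fkbp5 and Tsc22d3; 3.44% of all features), 4 at 30 min against 24 h (Tsc22d3, Errfi1, Nfkbia and Sgk1; 10.5% of features), 3 at 4 h against 30 min (Fkbp5 higher, Nfkbia and Errfi1 lower; 4.51%) and 6 for any difference by time (4.25%). DESeq2 counted the same numbers at that threshold, and called Tsc22d3 for any difference by time with an adjusted p of 0.0292. The count for any difference by time was 3 without sample 13 or sample 14, and 4 with scaling by library size or with the step between samples 18 and 19 as a covariate. The count at 4 h against 30 min was 1 without sample 3 (3xCHI, 4 h). At 4 h against 24 h the count was 2 without any 1 of 13 samples, and at 30 min against 24 h it was 6 without sample 11. All 10 members had a log2 fold change above 0 at 4 h against 24 h, with a median of 0.21, beside 7601 of 15224 features and a median of -1e-04. At 30 min against 24 h the count was 9 of 10 with a median of 0.32, beside 7211 features and a median of -0.01.

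Against the shams, no feature and no member passed the adjusted threshold (0% of features at each of the 3 times). At an unadjusted p under 0.05, edgeR counted 1 member at 30 min (Nfkbia; 15.6% of features), 2 at 4 h (Plin4 and Fkbp5; 8.85%) and 0 at 24 h (4.18%), and DESeq2 counted 1, 3 and 0 and called none. The count at 24 h was 2 without sample 12, and at 30 min it was 2 without sample 20 (sham) and 0 with the step as a covariate. With only the compared groups in the fit, it was 2 at 30 min and 4 at 4 h. The median log2 fold change of the members was 0.25 at 30 min, 0.14 at 4 h and -0.09 at 24 h, with 9, 7 and 4 of the 10 above 0, beside 0.0052, 0.0098 and 0.0025 over all features, of which 7756, 7939 and 7734 were above 0. These comparisons use the same 4 shams and are not independent of each other.

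The differences by time differed in size and sign between 1, 3 and 5 injuries. For Plin4 the 4 h against 24 h log2 fold change was 2.22 (SE 0.71) within 1xCHI, 1.76 (SE 0.73) within 3xCHI and -0.29 (SE 0.66) within 5xCHI. For Fkbp5 it was 1.21 (SE 0.33), 0.79 (SE 0.36) and -0.23 (SE 0.33). The median over the 10 members was 0.45 within 1xCHI and 0.42 within 3xCHI, and -0.23 within 5xCHI, with 10, 9 and 0 of the 10 above 0. Over all features the medians were 0.01, -0.001 and -0.01, with 8245, 7585 and 6911 of 15224 above 0. The direction within 5xCHI rested on sample 11, without which 7 of the 10 members were above 0 with a median of 0.06, and Plin4 was at 0.49. Without sample 12 of the same group 2 were above 0, with a median of -0.07. At 30 min against 24 h the medians of the members were 0.86, 0.04 and -0.17, beside -7e-04, 0.006 and -0.02 over all features, and single samples moved the last 2 of them. Within 3xCHI the median was 0.18 without sample 4 and -0.04 without sample 22, and within 5xCHI it was 0.18 without sample 11 and 0.04 without sample 31, with 7 of 10 above 0 in either case, and 0.006 without sample 12. At an unadjusted p under 0.05, edgeR counted 0 members within 3xCHI and within 5xCHI at 30 min against 24 h (627 and 364 of 15224 features). Within 1xCHI it counted 8 (983 features), with 0 past the adjusted threshold and 0.163 as the smallest adjusted p of a member. All 10 members were above 0 within 1xCHI, among them Cdkn1a (1.34, SE 0.37), Sgk1 (0.99, SE 0.40) and Nfkbia (0.97, SE 0.29). The value of Plin4 there (2.05, SE 0.71) rested on sample 27, without which it was 0.79, and that of Fkbp5 was 0.62 with this sample and 0.18 without it.

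The difference in time course between injury numbers was itself tested, with 4 contrasts at once. None of the members and no feature (0%) passed the adjusted threshold, with an adjusted p of 1 for every member. At an unadjusted p under 0.05 edgeR counted 4 members (Plin4, Fkbp5, Tsc22d3 and Cdkn1a; 2.63% of features), as did DESeq2, which called none of the 10. Without sample 11, sample 12 or sample 18 the count was 2, without sample 33 or sample 34 it was 6, and with only the compared groups in the fit it was 1.

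**Figure D2:**
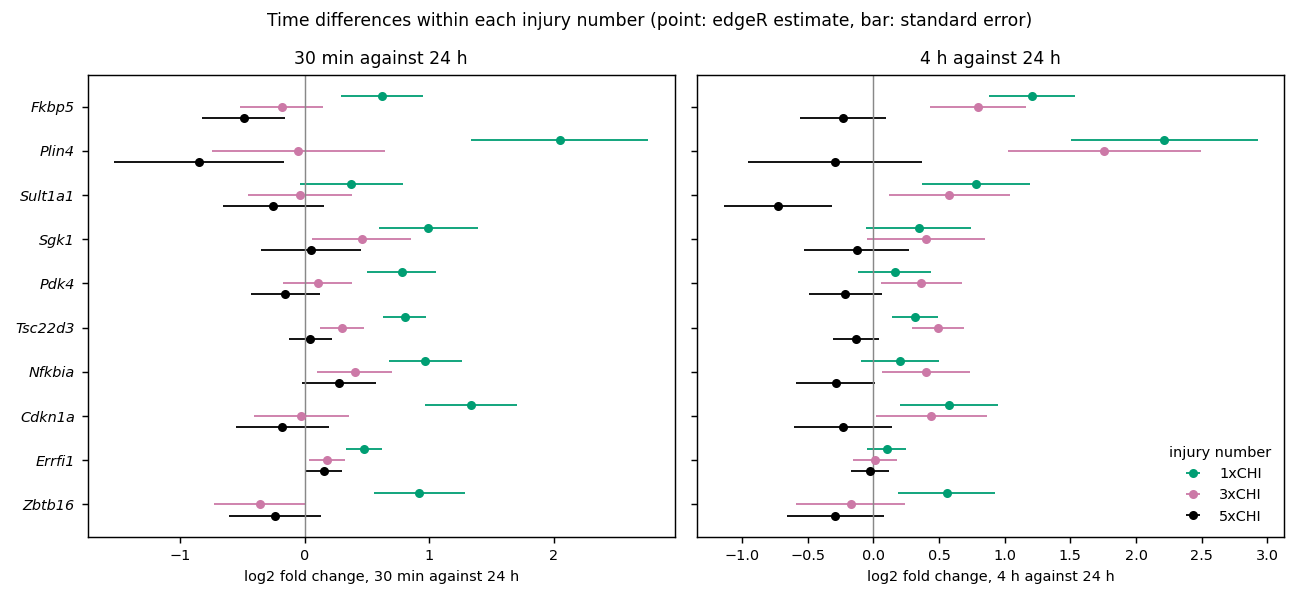
Log2 fold change of each gene at 30 min and at 4 h against 24 h within 1xCHI, 3xCHI and 5xCHI, with bars of 1 standard error from the edgeR fit. Within 1xCHI all 10 values are above 0 at both times; within 5xCHI the 4 h values are all below 0, and the largest shift between injury numbers is that of Plin4.

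In the 1xCHI group at 30 min, the samples themselves fell apart, and blood and other cell markers differed between them too. Samples 13 and 14 had the higher Nfkbia (53.7 and 45.8 CPM), Cdkn1a, Tsc22d3 and Errfi1, and sample 27 the higher Plin4 (38.8 CPM, against 4.90 and 9.95 CPM) and Fkbp5 (51.3 CPM, against 22.5 and 27.0 CPM). The 4 hemoglobin genes summed to 510 and 499.7 CPM in samples 13 and 14 and to 85.6 CPM in sample 27, the lowest of the 39, with 169.9 to 272.8 CPM in the shams. None of the 4 was at 0 in any sample. Oligodendrocyte sums were 7014, 7604 and 5142 CPM in samples 13, 14 and 27, astrocyte sums 2169, 2774 and 3595 CPM, and neuron sums 6348, 6285 and 7116 CPM. Sample 27 also lies on the other side of the step between samples 18 and 19. The part of blood, of these cells or of the step in the member values was not tested. Against the shams, edgeR counted 4 members at an unadjusted p under 0.05 (Nfkbia 1.03, SE 0.29; Tsc22d3 0.52, SE 0.17; Cdkn1a; Errfi1 0.31, SE 0.14), where 19.7% of all features had such a p, and 0 past the adjusted threshold. The count was 2 without sample 13, sample 14 or sample 39 (sham), and 2 with the step between samples 18 and 19 as a covariate. Without sample 27, Nfkbia (1.30, adjusted p = 0.00844), Cdkn1a (1.16, adjusted p = 0.0357) and Tsc22d3 (0.59, adjusted p = 0.0317) passed it, along with 3601 features in all.

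Against the group before each injury, no feature (0%) and no member passed the adjusted threshold in edgeR, and DESeq2 called no member. After 1xCHI, against the shams, the members at an unadjusted p under 0.05 were Fkbp5 alone at 4 h (0.91, SE 0.33; 10.5% of features) and Zbtb16 alone at 24 h (lower; 6.02%). After 3xCHI, against 2xCHI, they were 0 at 30 min (1.88% of features), Plin4 (2.36, SE 0.81) and Fkbp5 (1.01, SE 0.39) at 4 h (2%), and 0 at 24 h (4.57%). After 5xCHI, against 4xCHI, they were Plin4 (1.90, SE 0.78) and Sult1a1 (1.29, SE 0.45) at 30 min (6.36%), Plin4 (2.46, SE 0.78) and Fkbp5 (0.84, SE 0.36) at 4 h (5.33%), and Plin4 (2.75, SE 0.76), Sult1a1 (1.54, SE 0.43) and Fkbp5 (1.07, SE 0.34) at 24 h (6.44%). DESeq2 counted the same numbers, except 2 members at 24 h after 1xCHI and 4 at 24 h after 5xCHI. Single samples and settings moved these counts. With only the compared groups in the fit, they were 4 at 4 h and 3 at 24 h after 1xCHI, 4 at 4 h and 2 at 24 h after 3xCHI, and, after 5xCHI, 5 at 30 min, 3 at 4 h and 2 at 24 h. With the step between samples 18 and 19 as a covariate, those at 30 min and 4 h after 5xCHI were 1 each. After 1xCHI the count was 0 at 4 h without sample 16 and 4 at 24 h without sample 26. After 3xCHI the count at 4 h was 1 without sample 1 or sample 21. After 5xCHI it was 1 at 30 min without sample 7, 8 or 40, and 1 at 4 h without sample 10 or 40. The 3 comparisons within each injury number share 1 control group.

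The 5xCHI samples were split by sample number at 24 h and 30 min but not at 4 h. At 24 h samples 11 and 12 exceeded samples 33 and 34 for 9 of the 10 members, beside 31.3% of all features, the exception being Zbtb16 (23.2 and 69.9 against 50.8 and 44.7 CPM). At 30 min samples 7 and 8 exceeded sample 31 for all 10 (36.8% of features). At 4 h samples 9 and 10 both exceeded sample 32 for Zbtb16 alone (33.9% of features), and both lay below it for 4 members (32.5% of features), while for the other 5 sample 32 lay between them. Sgk1, for example, had 184.6 and 106.4 CPM in samples 11 and 12 and 53.1 and 42.2 CPM in samples 33 and 34, and Nfkbia 43.3 and 29.5 against 13.4 and 14.3 CPM. At 24 h Sult1a1 had 37.7 and 29.0 CPM in samples 11 and 12 but 5.63 and 6.67 CPM in samples 33 and 34, beside 6.00, 7.09 and 7.33 CPM after 4xCHI (samples 25, 24 and 40). At 30 min it had 20.6 and 20.4 CPM in samples 7 and 8 and 8.93 CPM in sample 31. Plin4 at 30 min was 28.9 and 25.7 CPM in samples 7 and 8 and 4.90 CPM in sample 31, and Fkbp5 39.9, 40.6 and 19.4 CPM. Among samples 19 to 40 the Plin4 values at 24 h of 5xCHI (4.26 and 6.71 CPM) overlapped those of 4xCHI (4.80, 5.42 and 5.66 CPM), and samples 1 to 18 held no 4xCHI sample. With the side of the step as a covariate, the 5xCHI 24 h log2 fold change against 4xCHI was 2.52 for Plin4, 0.97 for Fkbp5 and 1.17 for Sult1a1.

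Glial markers moved with some of these samples and not with others. Sample 11 had the highest value of the 39 for 5 of the 6 microglia markers, and a neuron marker sum of 4582 CPM, the lowest. Sample 12, in which Plin4, Fkbp5 and Sult1a1 were also high, had a microglia sum of 323.7 CPM beside 321.3 and 323.2 CPM in samples 33 and 34. Its neuron sum was 6125 CPM beside 7249 and 7187 CPM in those samples. Its astrocyte sum was 3391 CPM beside 3841 and 3714 CPM, but its Gfap was 190.6 CPM beside 113.6 and 130.2 CPM. At 30 min Gfap was 321.3 and 559.4 CPM in samples 7 and 8 and 106.7 CPM in sample 31, the sample with the most choroid plexus markers. Astrocyte sums in samples 7, 8 and 31 were 3896, 3290 and 2847 CPM and microglia sums 334.5, 361.7 and 280.4 CPM, and their neuron sums were 6461, 6567 and 7305 CPM. The part of these cells in the split was not tested. Without samples 10 and 11, the 5xCHI 24 h log2 fold change against 4xCHI was 1.95 for Plin4, 0.79 for Fkbp5 and 1.01 for Sult1a1.

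At 24 h the members could be followed over 1 to 5 injuries. The mean CPM of Plin4 after 1, 2, 3, 4 and 5 injuries was 4.23 ± 2.51 (SD, n = 4), 7.75 ± 3.00 (n = 3), 11.8 ± 2.42 (n = 4), 5.30 ± 0.44 (n = 3) and 35.6 ± 36.9 (n = 4), beside 8.81 ± 3.27 (n = 4) in the shams. Those of Fkbp5 were 21.7 ± 6.46, 24.4 ± 3.64, 28.2 ± 4.90, 22.2 ± 2.94 and 46.7 ± 25.9, beside 26.8 ± 3.59 CPM in the shams. Both means were lower after 4xCHI than after 3xCHI, and the SD of Plin4 after 5xCHI exceeded its mean. Zbtb16 started lowest after 1xCHI (24.3 ± 5.75 CPM) and had 33.0 ± 19.6, 48.5 ± 22.7, 39.6 ± 6.72 and 47.1 ± 19.3 CPM after 2 to 5 injuries, beside 53.7 ± 13.6 CPM in the shams.

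The linear trend over 1 to 5 injuries, in log2 units per added injury, was above 0 for all 10 members, with a median of 0.16 beside 0.001 over all features (7804 of 15224 above 0). It was largest for Plin4 (0.56, SE 0.16), Sult1a1 (0.22, SE 0.09), Zbtb16 (0.22, SE 0.08) and Fkbp5 (0.21, SE 0.07). At an unadjusted p under 0.05, edgeR counted 6 members (these 4, Cdkn1a at 0.18 and Pdk4 at 0.15; 7.20% of features), DESeq2 also 6, and 0 passed the adjusted threshold (0% of features; smallest adjusted p of a member 0.670). Without sample 11 the count was 3, and without samples 10 and 11 it was 3. The slopes without both samples were 0.40 for Plin4, 0.26 for Zbtb16, 0.16 for Fkbp5, 0.12 for Sult1a1, 0.09 for Pdk4 and 0.06 for Cdkn1a. For any difference among the 5 groups at 24 h and the shams, edgeR counted 4 members at that unadjusted threshold (Plin4, Fkbp5, Sult1a1 and Zbtb16; 4.58% of features) and none past the adjusted one, where DESeq2 called Plin4 (adjusted p = 0.0103). That count was 2 without sample 11 or sample 12.

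**Figure D3:**
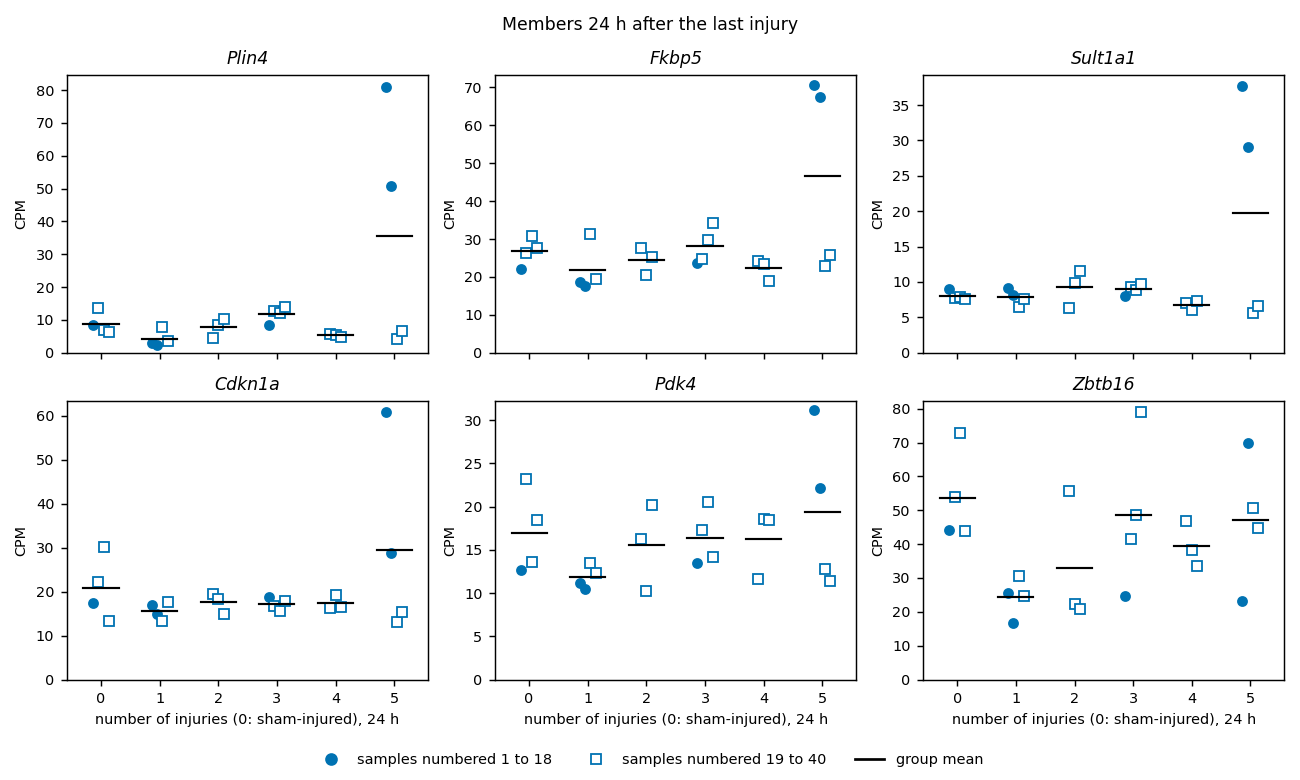
CPM of 6 of the genes at 24 h against the number of injuries, with the shams at 0. Filled points are samples 1 to 18, open squares are samples 19 to 40, and bars are group means. The 2 filled points of 5xCHI (samples 11 and 12) stand above the 2 open squares for Plin4, Fkbp5 and Sult1a1, and the 4xCHI group has open squares only.

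Counted by sample, sample 11 had 7 of the 10 members above all shams, where 39.5% of all its features were, and samples 7 and 8 (5xCHI, 30 min) had 6, beside 22.4% and 27% of features. Sample 28 (1xCHI, 24 h) had 9 of 10 below all shams, beside 19.8% of features. Samples 18, 21, 24 and 33, all at 24 h, had 6 below, beside 28.4%, 27%, 18.3% and 16.6% of features. With 4 shams, many features of any sample fall outside their range, and these counts have no test.

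**Figure D4:**
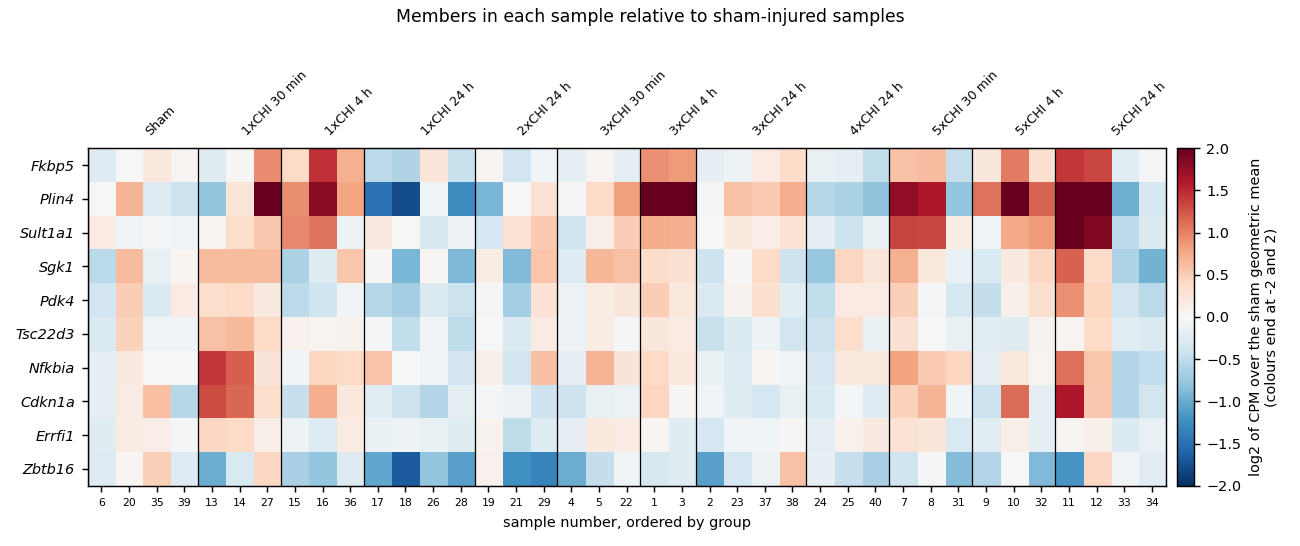
Log2 ratio of each gene's CPM to the geometric mean of the 4 sham-injured samples, for the 39 samples in group order; colours end at -2 and 2. Plin4 shows the strongest colours, red in all 8 samples at 4 h and in samples 11 and 12, and Zbtb16 is mostly blue outside the shams.

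Over the 39 samples, log2 CPM values fell into sets of alike members. These correlations are descriptions over samples that share groups and, in part, high or low libraries. Fkbp5 and Plin4 formed a tight pair (Pearson's r = 0.90 over 39 samples, and 0.89 after group means were removed), and of all 15224 features Plin4 was the one most like Fkbp5. Sult1a1 joined them (r = 0.80 with Plin4 and 0.73 with Fkbp5). Sgk1 and Pdk4 formed another (r = 0.90, and 0.92 within groups), each the feature most like the other. Sgk1 was also alike to Nfkbia (0.77) and Tsc22d3 (0.76), and Nfkbia to Tsc22d3 (0.74) and Cdkn1a (0.73). Fkbp5 and Nfkbia, from the different sets, had r = 0.33, and Zbtb16 had between -0.10 and 0.41 with every other member. Without samples 10 and 11 the values were 0.88 for Fkbp5 and Plin4 and 0.88 for Sgk1 and Pdk4.

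**Figure D5:**
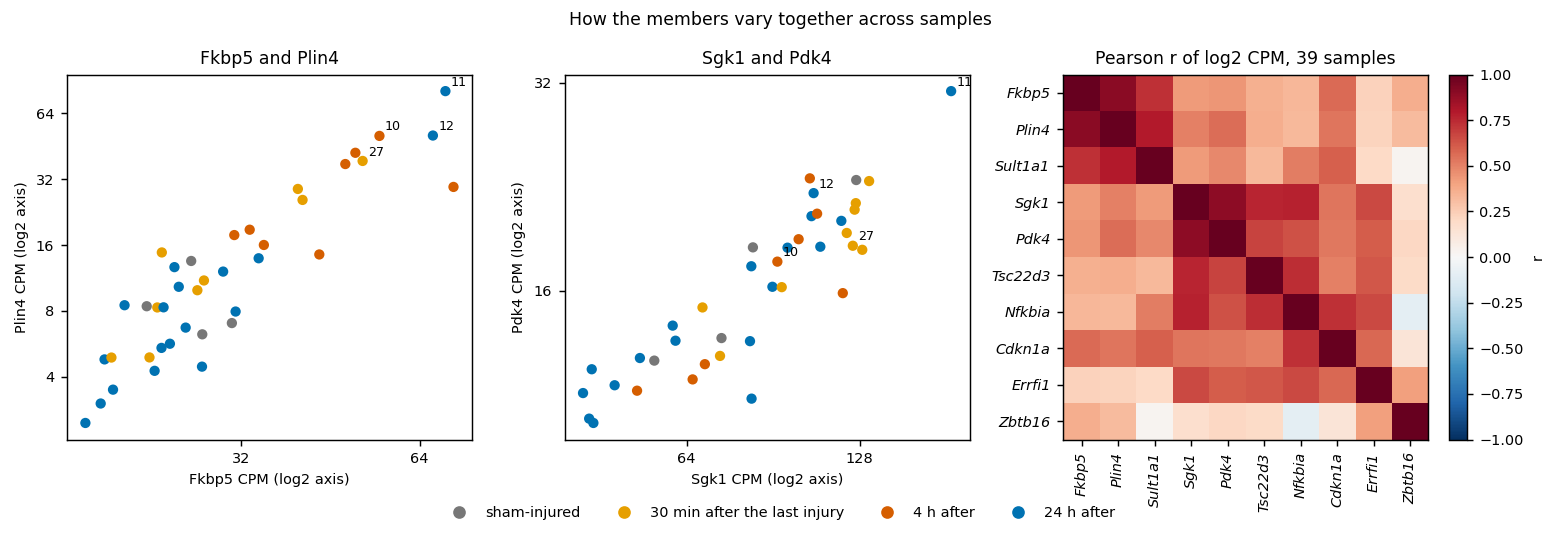
Left and middle, log2 CPM of Plin4 against Fkbp5 and of Pdk4 against Sgk1, 1 point per sample, with samples 10, 11, 12 and 27 marked. Right, Pearson's r over the 39 samples for every pair of genes, with Fkbp5, Plin4 and Sult1a1 (0.73 to 0.90) and Sgk1 and Pdk4 (0.90) as the strongest blocks and Zbtb16 apart.

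Other features most like the members were in part known hormone targets themselves. Hif3a, Sdc4, Mertk, Ddit4, Arrdc2, Klf15 and Gjb6 are on the list of other glucocorticoid-responsive genes described below. That list was chosen with earlier results of these data known, so their likeness is not independent support. The 3 highest correlations of Plin4 were with Hif3a (0.92), a relative of the hypoxia-inducible factors, Fkbp5 and Sdc4 (0.86), a heparan sulfate proteoglycan. After Plin4, Fkbp5 was most like Mertk (0.84), a receptor for the engulfment of dead cells, and Hif3a (0.83). Nfkbia was most like Ddit4 (0.92), an inhibitor of mTORC1, then Arrdc2 (0.83) and Sap30 (0.83), and Sgk1 was most like Ddit4 (0.86) after Pdk4, followed by Gm19439 (0.83). Pdk4 was like Klf15 (0.83), a zinc finger factor, and Gm19439 (0.79), and Tsc22d3 like Ppp1r3g (0.78) and Arrdc2 (0.76). Sult1a1 was like Pla2g3 (0.84), Gjb6 (0.83), an astrocyte connexin, and Cmtm3 (0.82), Cdkn1a like Fam129b (0.80), Spns2 (0.77) and Rapgef3 (0.77), and Errfi1 like Gem (0.76), Tiparp (0.76) and Csrnp1 (0.74). Zbtb16 was like Iqsec3 (0.83), a synaptic exchange factor, Arhgap39 (0.79) and Numa1 (0.78).

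A list of 22 other glucocorticoid-responsive genes, of which 21 were tested, gave 1 gene past the adjusted threshold in the comparisons with the shams and between times. The list, like the members, was chosen with earlier results of these data known, so its counts are descriptions only. Dusp1, the phosphatase that inactivates MAP kinases and is also an immediate early gene, was higher at 30 min than at 24 h by a log2 fold change of 1.22 (SE 0.25, adjusted p = 0.0299). Its value at 30 min against the shams was 0.70 (SE 0.36, adjusted p = 0.326). It had 20.0 to 139 CPM at 30 min (median 53.9 CPM, n = 9) and 20.4 to 42.8 CPM at 24 h (median 29.3 CPM, n = 12), so the ranges still overlapped. Leaving out 1 sample at a time ended the call for samples 2, 4, 8, 13, 14, 18, 22, 23, 28, 33, 34 and 38, with the lowest log2 fold change, 0.96, without sample 8 (5xCHI, 30 min). In the same comparison 4 of the 21 were higher at an unadjusted p under 0.05 (10.5% of all features had such a p in either direction), among them Ddit4 (0.50) and the clock gene Per1 (0.47). At 4 h against 24 h 3 were higher, beside 3.44% of features, namely Hif3a (0.59), the metallothionein gene Mt2 (0.59) and Sdc4. At 4 h against the shams 5 were higher and 1 lower, beside 8.85% of features, led by Mt2 (1.14), Cebpd (1.12), a transcription factor of the acute phase, and Mt1 (0.87).

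In the trend over 1 to 5 injuries at 24 h, all 21 were above 0, as all 10 members were, and 13 had an unadjusted p under 0.05, beside 7.20% of features, with the largest slopes for Cebpd (0.35), Hif3a (0.31) and Angptl4 (0.23), a secreted inhibitor of lipoprotein lipase. None passed the adjusted threshold. Sample 11, without which the count of members fell from 6 to 3, lies in the last group of this trend. The slopes of the list were not refitted without it. Of the astrocyte markers in the same trend, 4 of 6 were higher at an unadjusted p under 0.05, and of the microglia markers 3 of 6, and their part in the trends of the members was not tested.

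Of 14 genes for the receptors, chaperones, coregulators and enzymes that handle the steroid, 13 were tested and none passed the adjusted threshold. Nr3c1, the glucocorticoid receptor gene, had 120.1 to 154.5 CPM in the shams, and its log2 fold change at 4 h was -0.18 against 24 h and -0.29 against the shams. Nr3c2, the mineralocorticoid receptor gene, was lower at 30 min against 24 h (-0.26, SE 0.08, adjusted p = 0.365), where 2 chaperone genes were higher at an unadjusted p under 0.05, beside 10.5% of features in either direction. Against the shams at 30 min 3 were lower at that threshold, beside 15.6% of features in either direction, with the coactivator genes Ncoa2 (-0.39) and Ncoa1 (-0.26) the largest in size. In the injury number trend 1 was higher, Hsd11b1 (0.17), the enzyme that regenerates active hormone, and 2 were lower, beside 7.20% of features in either direction.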

How the data were processed

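Bulk RNA of 40 left somatomotor cortices was sequenced, aligned and counted for the authors by a sequencing company. The authors deposited estimated counts (expected counts that need not be whole) per GENCODE M21 gene identifier, neither normalized nor filtered; mm10 is named per the labels, and the aligner and counter are not given in the sources used here. Of the deposited values, 4.46% were not whole, and counts were rounded for the tests. All columns were mapped to samples by sample number. A feature was kept when at most 4 of the 39 samples lay below 10 counts. edgeR 4.0.16 (TMM, quasi-likelihood test, 1 coefficient per group, 12 groups) in R 4.3.3 was the main test, with DESeq2 1.42.0 as an alternative, and adjusted p is Benjamini-Hochberg over all 15224 features with a threshold of 0.05. Levels are CPM, and log2 CPM used a prior count of 1. Exact permutation tests were two-sided and used the 8 samples at 4 h with the 12 at 24 h or the 4 shams. Scripts were tested on simulated data. Python 3.11.15 with pandas 2.3.3 and matplotlib 3.10.9 made the summaries and figures. The members and lists were chosen with earlier results of these data known. Genes named are all members, list genes past the adjusted threshold, the list genes of largest change in a comparison, and the 3 features most like each member; Sdc4 at 4 h was named beyond this rule after its value was seen. Gene positions are from GENCODE M21. Nothing states that replicates came from separate litters or extraction days, so p-values measure the spread between these samples. Within groups, 46 pairs of samples differed by more than counting noise (smallest chi-square per feature 6.85).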

Additional observations from a re-analysis of the deposited data

Results flagged for a closer look

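Fkbp5 in sample 26 was at 31.4 CPM, while the other 1xCHI samples at 24 h had 17.5 to 19.5 CPM, a gap that is large for a group of 4. It was the only one of 40 groups of 4 samples checked (10 members in 4 groups) to stand out in this way, and chance alone gives about 1 in 20.

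Sult1a1 in sample 30 (3xCHI, 4 h), which no comparison used, was at 9.83 CPM, above the highest sham-injured sample (9.06 CPM). The 2 samples of its group that were used had 13.4 and 13.5 CPM.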

How the results depend on the processing

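All counts of members called were 0 in the main fit, and under other settings 501 values stayed at 0 and 6 were higher. Values for 17 single log2 fold changes were followed, by time, against the shams or by injury number at 24 h. Of these, 779 kept direction and side of the threshold, 3 gained and 15 lost a call, all 15 of them Dusp1 (0.96 to 1.22). Apart from Dusp1, these fold changes were those of members with an unadjusted p under 0.05 in the main edgeR fit. Most settings left out 1 of the 39 samples, so a kept direction was largely given in advance. Values by time within an injury number did reverse: at 4 h against 24 h within 5xCHI, Plin4 was -0.29 and Fkbp5 -0.23, and without sample 11 they were 0.49 and 0.03. With the step between samples 18 and 19 as a covariate Dusp1 at 30 min against 24 h was 1.16, with only the compared groups 1.22, and without samples 10 and 11 1.22, none of them called. The members called at 30 min against 24 h were 0 to 2 when 1 sample at a time was left out (1 without sample 12, 2 without sample 27). Against the group before each injury they were 0 to 3 in that way (3 without sample 27), and 1 with only the groups compared in the fit (Plin4 in 3xCHI at 4 h, 2.37, adjusted p = 0.0482). With DESeq2 they were 1 for any difference by time and 1 for any difference at 24 h and sham; the cause was not tested.

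The number of all features called depended on the setting much more. At 30 min against 24 h it was 22 with edgeR, 52 with DESeq2, 2 with only the compared groups and 4 to 192 without 1 sample. At 4 h against 24 h it was 1, and 0 with only the compared groups, 3 without samples 10 and 11 and 1 to 4 without 1 sample. At 4 h against 30 min it was 1, and 24 with DESeq2, 16 without a filter, 17 with all 40 samples, 2 with the covariate, 0 with only the compared groups and 0 to 30 without 1 sample. For any difference by time it was 5, and 58, 17 without a filter, 0 with only the compared groups and 2 to 28. It was 0 with edgeR and 6 with DESeq2 (0 to 4 without 1 sample) for a time course that varies with injury number, 0 and 2 (0 to 7) at 30 min against the shams, 0 and 1 at 4 h against the shams, 0 and 20 (5 without a filter, 0 to 2) for any difference at 24 h and sham, and 0 and 44 (6 without a filter, 5 with only the compared groups, 1 without samples 10 and 11, 0 to 3601) against the group before each injury.

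The setting without samples 10 and 11 and the permutation test against the shams were chosen after the data were seen. A prior count of 5 in place of 1 left every exact permutation test on the same side of 0.05. Groups of 2 to 4 samples limit every comparison. No paired analysis was possible because the sample numbers are unique and none is shared between groups.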

Other observations

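In sample 30, left out of every comparison, the members looked unlike the other samples of its group. Plin4 was at 9.78 CPM and Fkbp5 at 26.3 CPM, both within the range of the shams, while the used 3xCHI samples at 4 h had 37.5 and 42.2 CPM of Plin4 and 48.0 and 49.9 CPM of Fkbp5. Nfkbia (13.5 CPM), Zbtb16 (30.9 CPM) and Errfi1 (25.6 CPM) were below all shams there. The count of 4 h samples with Plin4 and Fkbp5 above all shams is 8 of 8 without this sample and would be 8 of 9 with it.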
